A study of Mus musculus with 6 samples.

Results

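The genes that make, carry, receive and transmit Wnt signals were followed in mouse embryonic stem cells (mESCs) with and without a deletion of the *Wnt6* anchor region. They were chosen by symbol as all numbered *Wnt*, *Fzd*, *Dkk*, *Sfrp* and *Rspo* genes and *Lgr4*, *Lgr5* and *Lgr6*, together with *Axin2*, *Lef1*, *Tcf7*, *Tcf7l1*, *Tcf7l2*, *Lrp5*, *Lrp6*, *Rnf43*, *Znrf3*, *Wls*, *Porcn* and *Ctnnb1*. This gave 56 of the 55385 genes in the count table. RNA was sequenced from wild-type G4 mESCs, an F1 hybrid line of 129/Sv and C57BL/6, and from cells of the same line in which CRISPR-Cas9 had removed the *Wnt6* anchor region from 1 allele (heterozygous) or from both (homozygous). All 3 genotypes were grown with LIF, a factor that keeps mESCs pluripotent, on CD1 feeder cells. Edited cells descend from single clones, and the labels do not say which clone a library came from, so genotype and clone cannot be told apart. The labels give 2 libraries per genotype, whereas the methods state triplicates, and nothing in the labels says that the 2 came from separate cultures. The p-values therefore measure the spread between these libraries, estimated in part from other genes, and this spread may be technical.

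Wnt proteins are secreted ligands that are acylated in the producing cell and bind Frizzled receptors and Lrp5 or Lrp6 on the receiving cell. Binding stops the destruction of β-catenin, which then acts with TCF/LEF factors on target genes, while other Wnt ligands act without β-catenin. In mESCs this pathway is known to favour self-renewal, and in the embryo it drives formation of the primitive streak.

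Promoter windows of 4 of these genes are shown because they stand for the main patterns in the counts. *Wnt6* is the ligand gene that names the deleted anchor, *Wnt4* was higher in both deletions, *Lgr6* was lower in both, and *Wnt11* was lower in the homozygous deletion. Each window is a RefSeq sequence of 300 bases on GRCm38.p6, written 5′ to 3′ on the strand of the gene, from 250 bases before the annotated start to 50 bases after it. In the first 3 the capitals mark CG dinucleotides. In *Wnt11*, which has 2 annotated windows, the first is shown, and the capitals mark a match to the TCF/LEF recognition motif CTTTGAT on the opposite strand, whose first base lies at position -51 relative to the start.
Wnt6, chr1:74771642-74771941, plus strand: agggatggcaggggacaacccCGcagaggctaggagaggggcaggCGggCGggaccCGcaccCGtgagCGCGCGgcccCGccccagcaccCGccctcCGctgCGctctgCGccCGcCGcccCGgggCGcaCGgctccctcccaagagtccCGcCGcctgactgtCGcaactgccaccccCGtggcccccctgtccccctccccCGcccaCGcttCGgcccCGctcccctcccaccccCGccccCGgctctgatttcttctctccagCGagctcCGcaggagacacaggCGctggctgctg
Wnt4, chr4:137277385-137277684, plus strand: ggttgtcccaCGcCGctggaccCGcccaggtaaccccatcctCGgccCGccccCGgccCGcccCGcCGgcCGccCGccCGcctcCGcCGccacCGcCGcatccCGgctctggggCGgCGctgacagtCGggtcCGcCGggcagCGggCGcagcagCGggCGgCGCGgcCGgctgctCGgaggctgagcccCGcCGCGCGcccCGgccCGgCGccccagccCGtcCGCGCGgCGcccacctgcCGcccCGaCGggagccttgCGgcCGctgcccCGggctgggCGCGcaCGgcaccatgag
Lgr6, chr1:135105227-135105526, minus strand: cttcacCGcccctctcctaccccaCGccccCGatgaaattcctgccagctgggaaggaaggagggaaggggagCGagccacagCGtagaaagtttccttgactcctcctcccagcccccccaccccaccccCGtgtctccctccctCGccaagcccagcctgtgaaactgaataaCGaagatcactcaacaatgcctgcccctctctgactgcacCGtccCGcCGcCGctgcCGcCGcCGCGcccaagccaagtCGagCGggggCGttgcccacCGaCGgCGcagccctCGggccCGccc
Wnt11, chr7:98834862-98835161, plus strand: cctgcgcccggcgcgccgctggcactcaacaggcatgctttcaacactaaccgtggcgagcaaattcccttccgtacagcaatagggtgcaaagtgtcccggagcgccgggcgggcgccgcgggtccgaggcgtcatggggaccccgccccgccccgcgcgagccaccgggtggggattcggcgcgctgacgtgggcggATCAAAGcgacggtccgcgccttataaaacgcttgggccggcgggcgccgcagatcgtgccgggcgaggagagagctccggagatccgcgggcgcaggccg
The *Wnt6* window held 31 CG dinucleotides, that of *Wnt4* 51 and that of *Lgr6* 24. Across the 47 windows of the 37 members with an entry the median was 24, against 7 over all 32851 windows of the table. The motif CTTTGAT, searched on both strands, was in 2 of the 47 windows (4.26%, those of *Wnt11* and *Wnt5b*) and in 3.73% of all windows. Its variant CTTTGAA was in 1 (2.13%, *Dkk1*) and in 5.14% of all windows. These matches describe letters in a window of 300 bases, and no binding was measured here.

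In wild-type libraries the pathway was expressed from receptor to nucleus, while most ligand genes were at low levels. Feeder RNA was not separated, so these levels cannot be assigned to the mESCs alone. Levels are given as RPKM, the CPM (counts relative to the library total, after TMM scaling) divided by the exon length in kb, which allows genes of different length to be compared. *Ctnnb1*, which encodes β-catenin, was highest at 120 ± 4.57 RPKM (SD, n = 2). Next came the transcriptional repressor *Tcf7l1* at 36.9 ± 0.122, the receptor gene *Fzd7* at 28.4 ± 0.131, the TCF/LEF factor gene *Tcf7* at 23.6 ± 0.0363 and the R-spondin receptor gene *Lgr4* at 23.1 ± 0.0254 RPKM (SD, n = 2 each). *Tcf7* and *Lgr4* were close to each other, and no other member exceeded 10 RPKM. Of the 56 members 32 were above 1 RPKM and 9 were below 0.1, and 6 of the 19 ligand genes were above 1. The median member was at 1.58 RPKM, against 0.470 over the 28552 genes with any wild-type count and a known length.

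**Figure D1:**
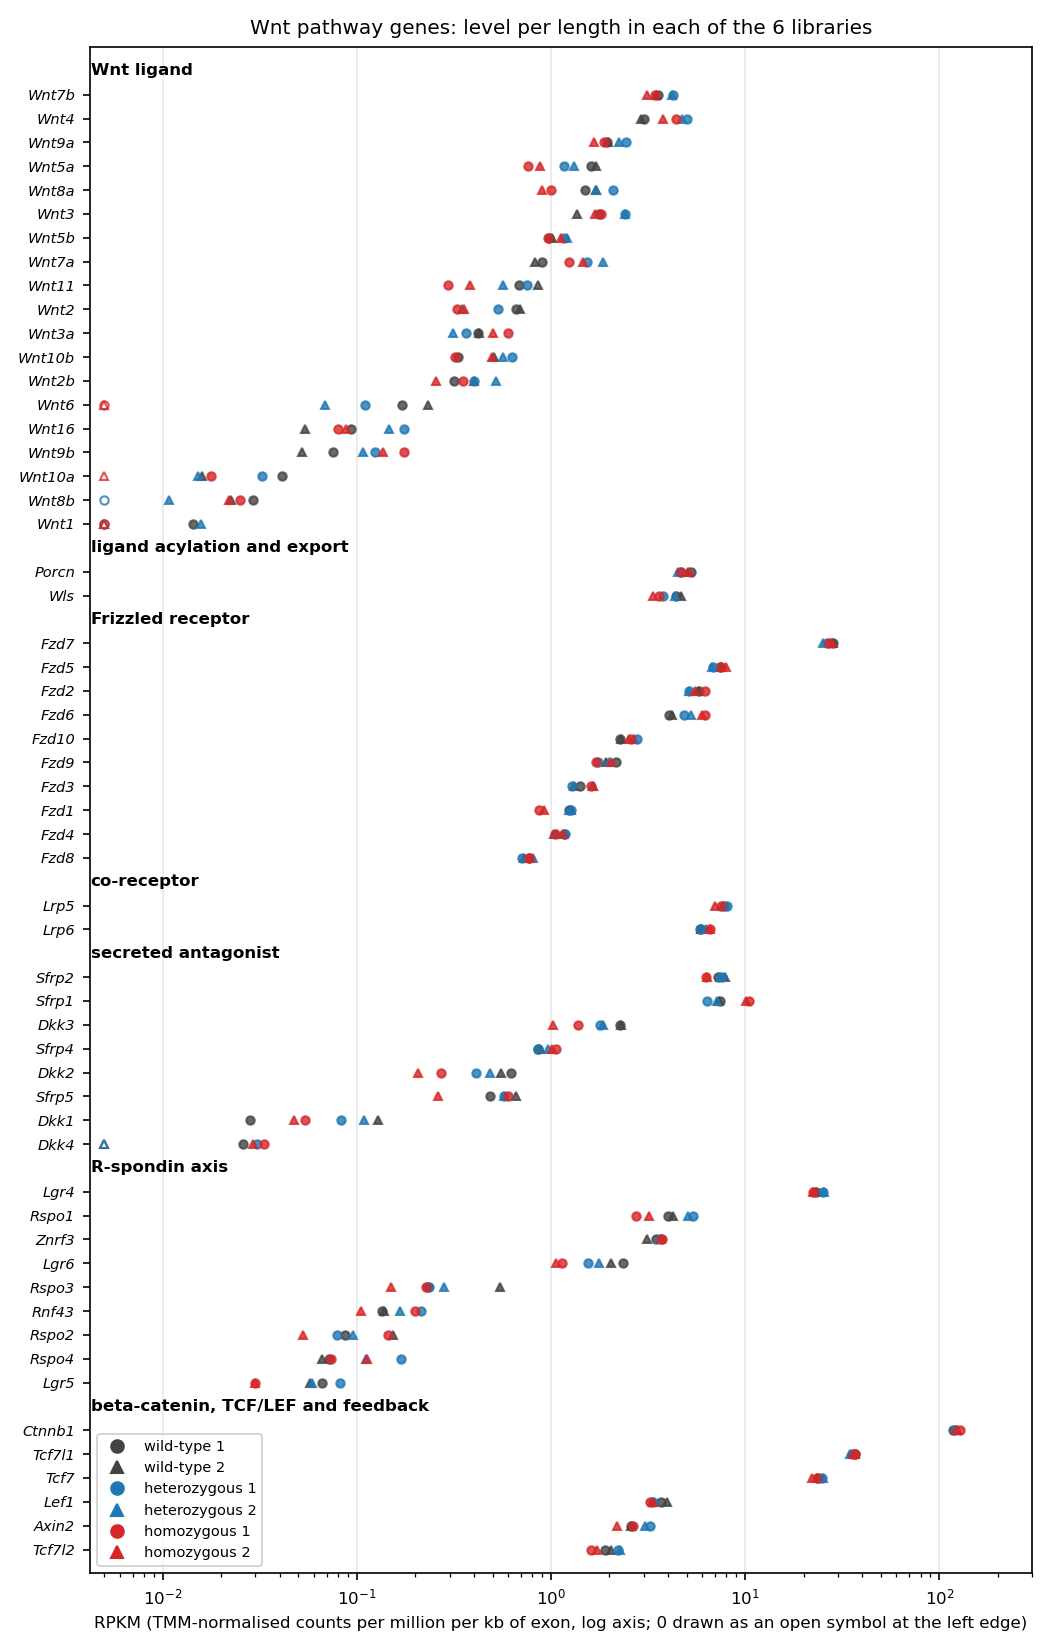
Level per length (RPKM, log axis) of the 56 Wnt pathway genes in each of the 6 libraries, grouped by role and ordered by the wild-type mean. Colours give the genotype, circles and triangles the replicate, and open symbols at the left edge stand for 0. *Ctnnb1*, *Tcf7l1*, *Fzd7*, *Tcf7* and *Lgr4* lie above 10 RPKM in wild-type cells, and *Wnt6* is at 0 in both homozygous libraries.

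Differences were tested with edgeR's quasi-likelihood test on the counts, for genes that reached 10 counts in 2 or more libraries, with Benjamini-Hochberg adjustment over all 16951 genes tested. A gene is said to rise or fall at an adjusted p below 0.05. The filter kept 50 of the 56 members. In the heterozygous deletion 5 members rose and 2 fell (14.0% of 50), against 5.14% of all genes tested (2.23% rose and 2.91% fell). In the homozygous deletion 6 rose and 13 fell relative to wild-type (38.0%), against 21.4% of all genes tested (10.9% rose and 10.5% fell). When homozygous cells were set against heterozygous cells, 3 members rose and 19 fell (44.0%), against 25.8% of all genes tested (12.9% in either direction). Falls made up most of the calls in the 2 comparisons of homozygous cells. Relative to wild-type 26.0% of the members fell, and relative to heterozygous cells 38.0%. Both shares, and the falls past the fold threshold given below for these comparisons, include *Wnt6*. This gene lies in the deletion, so its fall in homozygous cells was set in advance. The median log2 fold change of the members was 0.03, -0.07 and -0.24 in these comparisons, beside medians over all genes of 0.00, -0.01 and -0.02. With the study's additional threshold of an absolute log2 fold change above 1, 0 members were called in the heterozygous deletion. At any fold change, 22 of the 50 members had an unadjusted p below 0.05 there, and that share was not computed over all genes. In the homozygous deletion 1 was higher (*Wnt9b*) and 5 lower (*Wnt6*, *Dkk2*, *Wnt11*, *Wnt5a* and *Lgr6*), and 2 were lower between the deletions (*Wnt6* and *Lgr5*). *Wnt5a* and *Lgr6*, passed this threshold by less than 0.01 on the log2 scale. Across the 14 other settings *Dkk2* passed it as lower in the homozygous deletion in 14, *Wnt11* in 13, *Wnt5a* in 10 and *Lgr6* in 9. *Wnt6* gave a value in only 10 of the settings and passed in each of these. The smallest falls of *Wnt11*, *Wnt5a* and *Lgr6* under these settings were -0.99, -0.90 and -0.89 on the log2 scale. The same rule called 0.165%, 2.14% and 1.39% of all genes, with rises in 0.0413%, 0.271% and 0.496% and falls in 0.124%, 1.86% and 0.897%. DESeq2 called fewer members: 2 rises and 0 falls in heterozygous cells, 3 and 6 in homozygous cells, and 3 and 10 between the deletions. The 19 calls that it ended, at DESeq2 adjusted p from 0.0583 to 0.281, were those of *Wnt3*, *Wnt5a*, *Wnt7b*, *Fzd6* and *Lgr6* in heterozygous cells, of *Wnt7a*, *Wnt8a*, *Fzd1*, *Lrp6*, *Sfrp2*, *Rspo1* and *Lef1* in homozygous cells, and of *Wnt3*, *Wnt4*, *Wnt9a*, *Wls*, *Fzd1*, *Dkk2* and *Sfrp2* between the deletions. Over all genes, 50.8% of the homozygous calls were rises with TMM scaling and 31.9% with scaling to total counts alone (50.1% and 29.4% between the deletions), and with total counts alone 4 members rose and 15 fell in the homozygous deletion. Both deletions were compared with the same 2 wild-type libraries, so the comparisons are not independent. Of the members, 27 passed the test in at least 1 comparison. That share was not computed over all genes, so the count is no result about the members as a group. *Wnt4*, *Wnt7a* and *Fzd6* rose in both deletions, *Wnt5a* and *Lgr6* fell in both, and 0 moved in opposite directions.

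Libraries held 23813912 to 28964706 counts, and 3 counts, the limit that a count of 0 allows, corresponded to 0.102 to 0.131 CPM. This limit covers counting error only. The labelled cell type was checked with 8 pluripotency genes, *Pou5f1* and *Nanog* among them, whose summed level was 2343 to 2406 CPM in wild-type, 2081 to 2121 in heterozygous and 2334 to 2502 in homozygous libraries. Of these 8 genes 5 fell in heterozygous cells, 1 rose and 1 fell in homozygous cells, and 7 were higher in homozygous than in heterozygous cells, with median log2 fold changes of -0.19, 0.01 and 0.17. Their part in the Wnt pathway results was not tested. RNA of genes listed as feeder fibroblast markers also differed by genotype, and whether it came from feeder cells was not measured. The summed level of 20 fibroblast genes (collagens, *Thy1*, *Pdgfrb*, *Twist1* and others) was 1605 to 1618 CPM in wild-type, 1084 to 1141 in heterozygous and 722 to 736 in homozygous libraries. Of the 18 tested, 13 fell in heterozygous and 16 in homozygous cells, with median log2 fold changes of -0.51 and -1.11, and 15 were lower in homozygous than in heterozygous cells; 0 of the 20 were at 0 throughout a genotype. In these bulk samples fewer cells of a type and less RNA per cell cannot be told apart. The part of feeder cells, or of these fibroblast genes, in the falls of Wnt pathway genes described below was not tested. Genes of chromosome 8, where *Sfrp1* and *Dkk4* lie, shifted as a group, by a median of 0.39 (log2) in homozygous and -0.12 in heterozygous cells.

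*Wnt6* (chr1:74771892-74785322, plus strand) and *Wnt10a* (chr1:74791516-74804179, plus strand) are neighbouring ligand genes, 6.19 kb apart on chromosome 1, and the deletion takes in both. *Wnt6* had 11 and 13 counts in the wild-type, 6 and 4 in the heterozygous and 0 and 0 in the homozygous libraries. The 3 genotypes did not overlap, and the counts ordered with the number of intact alleles. The mean *Wnt6* level was 3.59-fold the floor of 3 counts per library in wild-type and 1.59-fold in heterozygous cells. These folds take means of few counts as exact, so they are not firm lower bounds of the fall. *Wnt6* passed the count filter only through its wild-type libraries. The homozygous deletion removes the gene from both alleles, so its fall there was set in advance and is no result about regulation. With that limit, *Wnt6* was lower in homozygous than in wild-type cells (edgeR adjusted p = 6.93e-04) and than in heterozygous cells (adjusted p = 0.0136). The latter call was lost without heterozygous replicate 1 or homozygous replicate 2 (adjusted p up to 0.0699). The heterozygous value had a log2 fold change of -1.15 (SE 0.55, adjusted p = 0.306), with a 95% interval of -2.30 to -0.01. *Wnt10a* had 3 and 1, 2 and 1, and 1 and 0 counts, too few for a test at this depth. Where the 1 count in homozygous replicate 1 came from was not tested.

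Among the ligands outside the deletion, *Wnt4* and *Wnt7a* rose in both deletions and *Wnt3* and *Wnt7b* in the heterozygous cells. *Wnt4* (chr4:137277489-137299726), known for its part in kidney and gonad development, was at 12.6 and 12.1 CPM in the wild-type libraries. It was at 20.9 and 19.9 CPM in the heterozygous and at 18.5 and 15.8 CPM in the homozygous libraries. The wild-type libraries lay below all 4 deletion libraries, with log2 fold changes of 0.72 (SE 0.09, adjusted p = 2.54e-05) and 0.47 (SE 0.09, adjusted p = 8.04e-04). The homozygous level was the lower of the 2 deletions (log2 fold change -0.26, SE 0.09, adjusted p = 0.0327). *Wnt7a*, which patterns the dorsal side of the limb, had 84 and 67 counts in the wild-type, 121 and 157 in the heterozygous and 90 and 120 in the homozygous libraries. After scaling, its deletion libraries lay above both wild-type libraries, by 0.97 on the log2 scale in heterozygous (SE 0.16, adjusted p = 6.53e-04) and 0.64 in homozygous cells (SE 0.17, adjusted p = 0.00914). *Wnt3*, required for formation of the primitive streak, had 159 and 107 counts in the wild-type, 184 and 198 in the heterozygous and 127 and 135 in the homozygous libraries. It rose in heterozygous cells (log2 fold change 0.62, SE 0.13, adjusted p = 0.00693) and was lower in homozygous than in heterozygous cells (log2 fold change -0.47, SE 0.13, adjusted p = 0.0129). *Wnt7b*, which acts in lung and kidney development, went from 17.4 and 16.9 CPM in the wild-type to 20.9 and 20.6 in the heterozygous and 16.7 and 15.3 in the homozygous libraries. Its heterozygous rise was small (log2 fold change 0.28, SE 0.08, adjusted p = 0.0433), and the homozygous libraries lay below both others (against heterozygous cells, log2 fold change -0.38, SE 0.08, adjusted p = 0.00139). *Wnt9b*, an inducer of kidney tubules whose gene lies 24.3 kb from *Wnt3*, had 10 and 6, 14 and 13, and 18 and 16 counts in wild-type, heterozygous and homozygous libraries. It rose in homozygous cells (log2 fold change 1.24, SE 0.43, adjusted p = 0.0469), and that call rested on few counts.

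*Wnt5a*, *Wnt11*, *Wnt2* and *Wnt8a* fell in homozygous cells. *Wnt5a* (chr14:28504750-28527448), the best known ligand that acts without β-catenin, was at 12.5 and 13.3 CPM in the wild-type, 9.12 and 10.3 in the heterozygous and 5.93 and 6.87 in the homozygous libraries. The 3 genotypes were separate and stepped down in that order, with log2 fold changes of -0.41 in heterozygous (SE 0.10, adjusted p = 0.0200) and -1.002 in homozygous cells (SE 0.11, adjusted p = 9.66e-07). *Wnt11* (chr7:98835112-98855195), a ligand of convergent extension movements whose window is shown above, had 83 and 91 counts in the wild-type, 77 and 62 in the heterozygous and 28 and 41 in the homozygous libraries. Only the homozygous libraries stood apart, lower than wild-type (log2 fold change -1.17, SE 0.23, adjusted p = 7.14e-04) and than heterozygous cells (log2 fold change -0.94, SE 0.23, adjusted p = 0.00580). *Wnt2*, a ligand of lung and placental development, had 44 and 40, 30 and 21, and 17 and 21 counts in wild-type, heterozygous and homozygous libraries and fell in homozygous cells (log2 fold change -0.97, SE 0.29, adjusted p = 0.0221). Its heterozygous and homozygous libraries overlapped. *Wnt8a*, a ligand of the early primitive streak, had 77 and 76, 91 and 79, and 40 and 41 counts. Its homozygous libraries lay below the other 4, with log2 fold changes of -0.75 against wild-type (SE 0.21, adjusted p = 0.0125) and -0.99 against heterozygous cells (SE 0.20, adjusted p = 0.00104). *Wnt9a*, a ligand of joint formation, passed the test only between the deletions, at 8.07 and 7.43 CPM in heterozygous and 6.24 and 5.57 CPM in homozygous libraries (log2 fold change -0.40, SE 0.12, adjusted p = 0.0196). In all, 4 ligands rose and 1 fell in the heterozygous deletion, 3 rose and 5 fell in the homozygous deletion, and 0 were higher and 8 lower in homozygous than in heterozygous cells, of 16 tested. The called shares were 5, 8 and 8 of the 16, beside 5.14%, 21.4% and 25.8% of all genes. Rises took in 2.23%, 10.9% and 12.9% of all genes and falls 2.91%, 10.5% and 12.9%. The ligand falls in both comparisons of homozygous cells include *Wnt6*, which lies in the deletion. The other tested ligands, *Wnt2b*, *Wnt3a*, *Wnt5b*, *Wnt10b* and *Wnt16*, passed no test, with 39 and 43, 34 and 30, 76 and 69, 33 and 44 and 12 and 6 wild-type counts in that order. *Wnt1* and *Wnt8b* had at most 1 and 3 counts in any library.

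Of these ligand calls, leaving out heterozygous replicate 2 or wild-type replicate 2 ended that of *Wnt3* in heterozygous cells (adjusted p up to 0.173), and each of the 4 libraries compared ended that of *Wnt7b* (up to 0.292). The heterozygous fall of *Wnt5a* was lost without heterozygous replicate 1 or either wild-type library (up to 0.208). In homozygous cells, calls ended without homozygous replicate 2 or wild-type replicate 2 for *Wnt7a* (up to 0.0727) and *Wnt8a* (up to 0.105), without homozygous replicate 1 or either wild-type library for *Wnt2* (up to 0.104), and without any 1 library other than homozygous replicate 2 for *Wnt9b* (up to 0.219). Between the deletions, leaving out 1 library ended the calls of *Wnt3* (either heterozygous library or homozygous replicate 2, up to 0.0630), *Wnt4* (the same 3 or wild-type replicate 2, up to 0.295), *Wnt9a* (heterozygous replicate 1 or homozygous replicate 2, up to 0.135) and *Wnt11* (heterozygous replicate 1, 0.0916).

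Summed over the 19 ligand genes, RNA per length was 18.1 and 18.2 RPKM in the wild-type, 23.2 and 22.4 in the heterozygous and 17.6 and 16.8 in the homozygous libraries. The heterozygous libraries were the highest. *Wnt4* made up 16.3% of the sum in wild-type, 21.4% in heterozygous and 23.7% in homozygous cells. *Wnt5a* made up 9.09%, 5.46% and 4.76%, while *Wnt7b* stayed between 18.6% and 19.3%. These sums and shares are descriptions and were not tested.

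**Figure D2:**
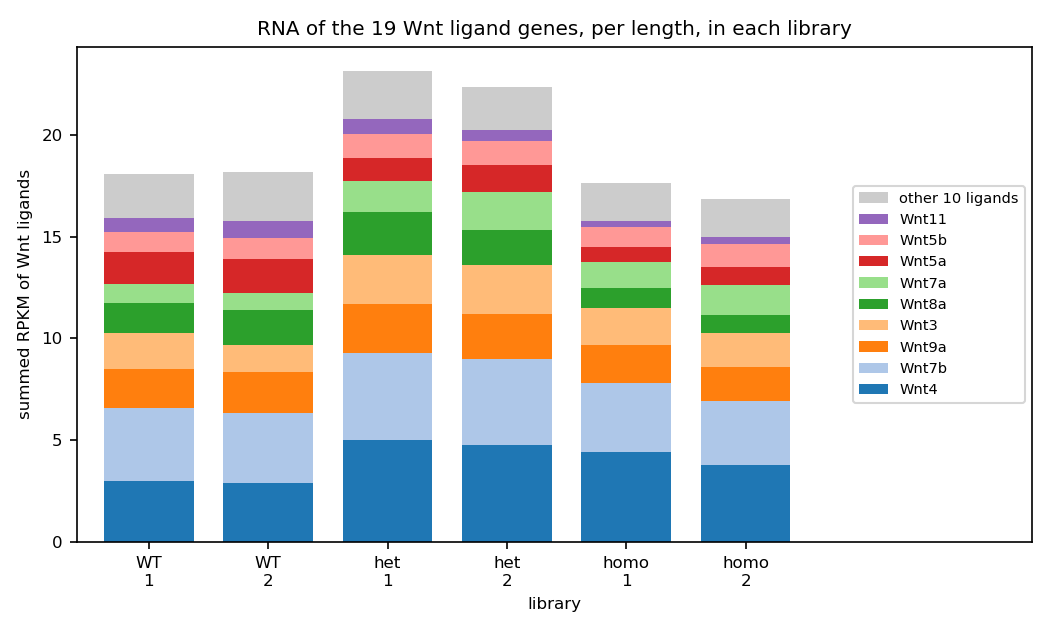
Summed RPKM of the 19 Wnt ligand genes in each of the 6 libraries, as bars stacked by gene (the 9 highest by name and the other 10 together). The heterozygous bars reach 23.2 and 22.4 RPKM and the other 4 lie between 16.8 and 18.2, with *Wnt4* at the base of each.

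Of the 2 genes that prepare ligands for secretion, *Wls* fell in homozygous cells. *Wls* encodes the carrier that takes acylated Wnt proteins to the cell surface and was at 38.8 and 41.2 CPM in the wild-type, 33.3 and 38.1 in the heterozygous and 31.5 and 29.4 in the homozygous libraries. The homozygous libraries were lowest, with log2 fold changes of -0.40 against wild-type (SE 0.07, adjusted p = 3.68e-04) and -0.23 against heterozygous cells (SE 0.07, adjusted p = 0.0236). The second of these was lost without heterozygous replicate 2 or homozygous replicate 2 (adjusted p up to 0.307). *Porcn*, the acyltransferase, was at 15.7 and 15.3, 13.9 and 13.6, and 14.0 and 15.3 CPM in the 3 genotypes, and its homozygous difference had a 95% interval of -0.26 to 0.10 on the log2 scale.

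Of the 10 Frizzled receptor genes, 1 rose and 0 fell in the heterozygous deletion, 1 rose and 1 fell in the homozygous deletion, and 2 were higher and 1 lower between the deletions. With 5.14%, 21.4% and 25.8% of all genes called, counts of 1, 2 and 3 in 10 were near the background and are no result about the receptors as a group. *Fzd6*, a receptor known from planar polarity, was at 19.6 and 20.2 CPM in the wild-type, 23.5 and 25.2 in the heterozygous and 30.02 and 29.0 in the homozygous libraries. The genotypes were separate and stepped up in that order, by 0.29 on the log2 scale in heterozygous (SE 0.07, adjusted p = 0.0201) and 0.57 in homozygous cells (SE 0.07, adjusted p = 5.66e-06). *Fzd1* had 152 and 136, 132 and 138, and 83 and 100 counts and fell in homozygous cells (log2 fold change -0.49, SE 0.14, adjusted p = 0.0150), to a level also below the heterozygous one (adjusted p = 0.0141). *Fzd5* was higher in homozygous than in heterozygous cells, at 51.9 and 54.9 against 47.2 and 46.6 CPM (log2 fold change 0.19, SE 0.06, adjusted p = 0.0162), with wild-type libraries at 51.5 and 52.2 CPM. *Fzd7*, the main Frizzled gene at 52.0% of their summed RPKM in wild-type, 49.6% in heterozygous and 49.0% in homozygous cells, was at 128 and 129, 120 and 114, and 122 and 127 CPM. Its 95% interval was -0.24 to -0.05 in heterozygous (adjusted p = 0.0875) and -0.14 to 0.05 in homozygous cells on the log2 scale. *Fzd2*, *Fzd3*, *Fzd4*, *Fzd8*, *Fzd9* and *Fzd10* also passed no test. Of the co-receptors, *Lrp6* rose in homozygous cells, from 80.2 and 80.5 to 89.8 and 89.6 CPM (log2 fold change 0.16, SE 0.05, adjusted p = 0.0235). *Lrp5* was at 75.9 and 74.8 CPM in wild-type and 73.1 and 68.4 CPM in homozygous libraries (adjusted p = 0.229).

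The heterozygous rise of *Fzd6* was lost without heterozygous replicate 2 or either wild-type library (adjusted p up to 0.253), and its step between the deletions without heterozygous replicate 1 (0.0747). The homozygous calls of *Fzd1* and *Lrp6* were lost without homozygous replicate 1 or either wild-type library (up to 0.0925 and 0.140), and those between the deletions without either heterozygous library or homozygous replicate 1 for *Fzd1* (up to 0.0730) and homozygous replicate 2 for *Fzd5* (up to 0.106).

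**Figure D3:**
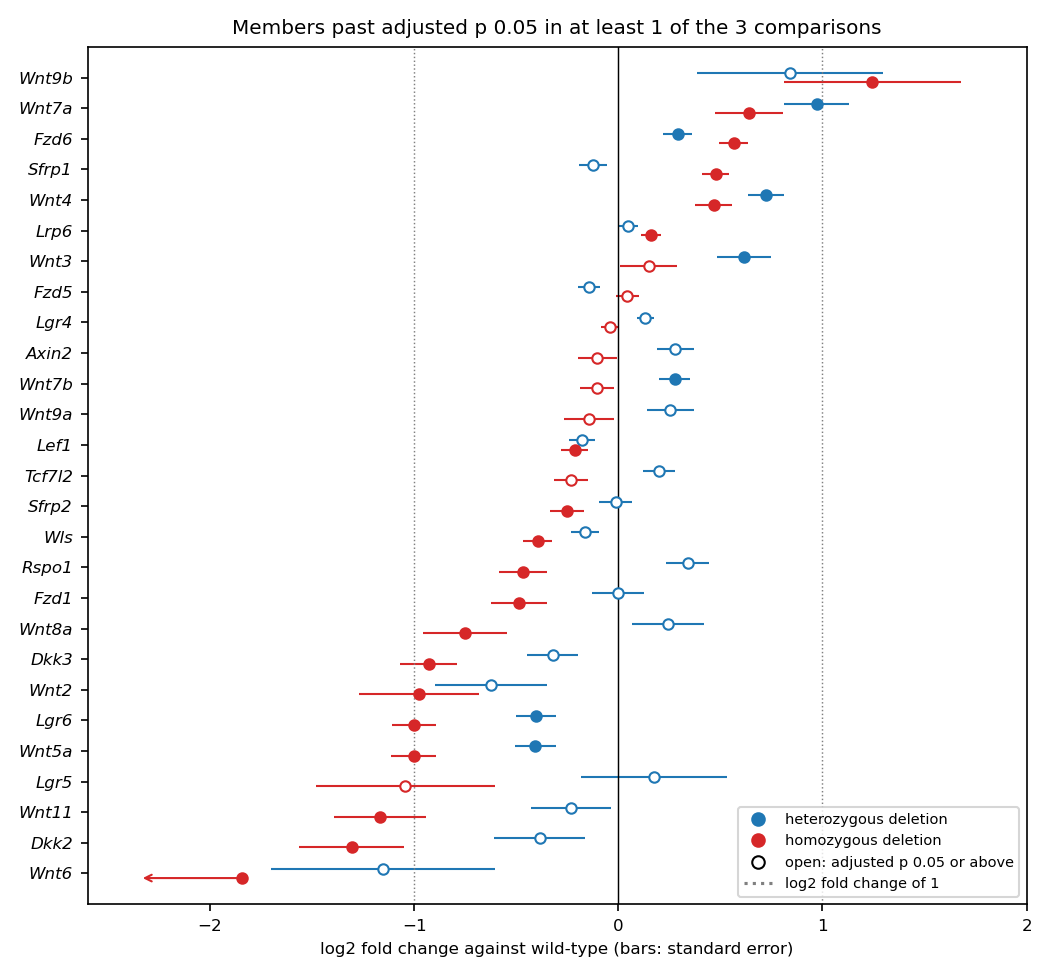
Log2 fold change against wild-type (points, with standard errors as bars) of the 27 members past adjusted p 0.05 in at least 1 comparison, for the heterozygous (blue) and the homozygous deletion (red). Filled points passed the test against wild-type. For *Wnt6* in homozygous cells, at 0 in both libraries, the red point is the 3.59-fold distance of the wild-type mean, taken as exact, from the floor. The arrow shows that the fall may be larger. Dotted lines mark a log2 fold change of 1 in either direction.

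Of the 6 tested secreted antagonists, 0 passed the test in the heterozygous deletion (1 at an unadjusted p below 0.05), while 1 rose and 3 fell in the homozygous deletion, where 10.9% of all genes rose and 10.5% fell. *Dkk2*, a ligand of the co-receptors, had 68 and 52 counts in the wild-type, 38 and 48 in the heterozygous and 23 and 20 in the homozygous libraries. Among tested members outside the deletion it had the lowest log2 fold change in homozygous cells (log2 fold change -1.31, SE 0.26, adjusted p = 8.29e-04). *Dkk3*, a divergent member of the same family, was at 7.62 and 7.67, 6.02 and 6.19, and 4.62 and 3.46 CPM in the 3 genotypes. Its libraries stepped down without overlap, with a log2 fold change of -0.32 in heterozygous (SE 0.13, adjusted p = 0.177) and -0.93 in homozygous cells (SE 0.14, adjusted p = 4.53e-05). Both were also lower in homozygous than in heterozygous cells (adjusted p = 0.0171 and 0.00400). *Sfrp1*, which encodes a soluble Frizzled-like decoy, was at 32.4 and 32.1 CPM in the wild-type, 27.6 and 31.5 in the heterozygous and 45.9 and 44.0 in the homozygous libraries. It rose in homozygous cells (log2 fold change 0.48, SE 0.07, adjusted p = 1.95e-05), beside the median of 0.39 for the 890 tested genes of its chromosome, 8, whose part in this rise was not tested. *Sfrp2*, a second decoy, was at 15.6 and 16.9, 16.3 and 15.9, and 13.6 and 13.7 CPM and fell in homozygous cells (log2 fold change -0.25, SE 0.08, adjusted p = 0.0383). *Sfrp1* made up 45.1% of the summed RPKM of the *Sfrp* genes in wild-type, 42.9% in heterozygous and 56.9% in homozygous cells. *Sfrp4* and *Sfrp5* passed no test, and *Dkk1* and *Dkk4*, at no more than 8 and 1 counts in any library, were not tested. The calls of *Sfrp2* were lost without any 1 of the 4 libraries compared against wild-type (adjusted p up to 0.283) and without any 1 of the 6 between the deletions (up to 0.166). Between the deletions that of *Dkk2* was lost without replicate 2 of either (up to 0.129), and that of *Dkk3* without homozygous replicate 2 (0.0683).

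R-spondins bind Lgr4, Lgr5 and Lgr6 and withdraw the ubiquitin ligases Rnf43 and Znrf3, which otherwise remove Frizzled receptors from the cell surface. In this group *Lgr6* fell in both deletions, *Rspo1* fell in homozygous cells and 0 of the 8 tested genes rose. In heterozygous cells 12.5% were called and in homozygous cells 25.0%, near the 5.14% and 21.4% of all genes, and 4 of the 8 were lower in homozygous than in heterozygous cells (12.9% of all genes). *Lgr6* (chr1:134983301-135105276, minus strand) was at 16.1 and 13.9 CPM in the wild-type, 10.6 and 12.1 in the heterozygous and 7.77 and 7.26 in the homozygous libraries. The genotypes were separate, and the log2 fold change was -0.40 in heterozygous (SE 0.10, adjusted p = 0.0190) and -1.001 in homozygous cells (SE 0.11, adjusted p = 7.51e-07). *Lgr6* lies on the same chromosome as the deletion, chromosome 1, whose 986 tested genes were at a median of 0.01 (log2) in homozygous cells. *Fzd5* and *Fzd7* also lie on chromosome 1, and neither passed the test against wild-type. The part of the shared chromosome in the fall of *Lgr6* was not tested. *Rspo1* had 227 and 211, 259 and 261, and 122 and 161 counts in wild-type, heterozygous and homozygous libraries. Its heterozygous libraries were highest and its homozygous ones lowest, with log2 fold changes of -0.47 against wild-type (SE 0.12, adjusted p = 0.00754) and -0.81 against heterozygous cells (SE 0.12, adjusted p = 2.78e-05). *Lgr4*, 91.1% of the *Lgr* RPKM in wild-type cells, was at 136 and 136, 147 and 151, and 132 and 132 CPM and differed only between the deletions (log2 fold change -0.17, SE 0.04, adjusted p = 0.00579). *Lgr5*, a stem cell marker of the intestine, had 20 and 15, 21 and 16, and 7 and 8 counts and was lower in homozygous than in heterozygous cells (log2 fold change -1.22, SE 0.43, adjusted p = 0.0441). *Rspo2*, *Rspo3*, *Rnf43* and *Znrf3* passed no test, and *Rspo4* had at most 10 counts in any library. The heterozygous fall of *Lgr6* was lost without heterozygous replicate 1 or wild-type replicate 1 (adjusted p up to 0.320), the homozygous fall of *Rspo1* without homozygous replicate 1 or wild-type replicate 2 (up to 0.0778). Between the deletions, the call of *Lgr4* was lost without heterozygous replicate 2 (0.0570) and that of *Lgr5* without any 1 of the 6 libraries (up to 0.258).

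Of the 6 genes at the nuclear end of the pathway, 0 rose or fell in the heterozygous deletion (edgeR, with 3 at an unadjusted p below 0.05), 1 fell in the homozygous deletion and 2 were lower in homozygous than in heterozygous cells. These shares, 16.7% and 33.3%, were near the 21.4% and 25.8% called among all genes and are no result about this group. *Ctnnb1* was at 609 and 642 CPM in the wild-type, 628 and 643 in the heterozygous and 660 and 633 in the homozygous libraries. These groups overlapped, and the 95% interval of its log2 fold change was -0.06 to 0.11 in heterozygous and -0.04 to 0.13 in homozygous cells. *Tcf7l1* had intervals of -0.16 to 0.02 and -0.12 to 0.06, and *Tcf7* of -0.03 to 0.19 and -0.16 to 0.06. *Lef1*, a TCF/LEF activator, was at 32.4 and 34.9, 29.6 and 29.9, and 28.4 and 29.5 CPM and fell in homozygous cells (log2 fold change -0.21, SE 0.07, adjusted p = 0.0231), a call lost without homozygous replicate 1 or wild-type replicate 2 (adjusted p up to 0.245). *Tcf7l2*, another factor of this family, was at 16.6 and 17.9 CPM in the wild-type, 19.5 and 19.97 in the heterozygous and 14.1 and 15.1 in the homozygous libraries. *Axin2*, a target of the pathway that feeds back to restrain it, was at 14.2 and 14.3, 17.7 and 16.9, and 14.5 and 12.1 CPM. For both genes the heterozygous libraries were the highest, and the difference passed the test only between the deletions (log2 fold change -0.43, SE 0.08, adjusted p = 5.60e-04 for *Tcf7l2* and -0.38, SE 0.09, adjusted p = 0.00465 for *Axin2*). Leaving out homozygous replicate 2 ended the call of *Axin2* (adjusted p = 0.0783).

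**Figure D4:**
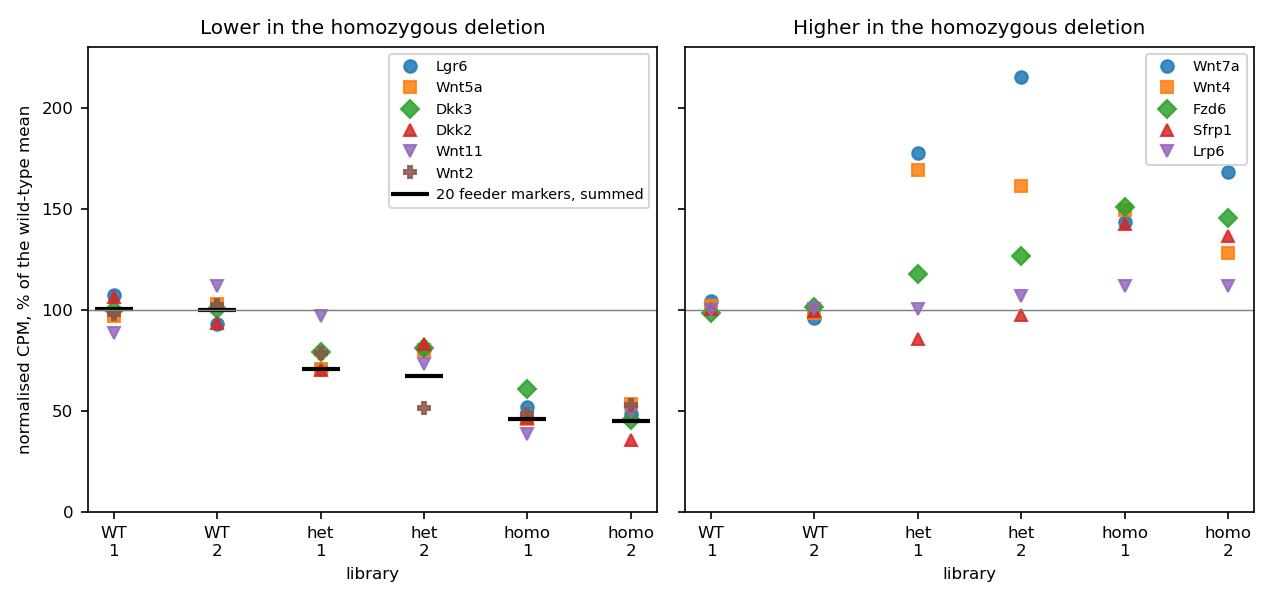
Normalised CPM of 11 members in each library as a percentage of the wild-type mean, for genes lower (left) and higher (right) in the homozygous deletion. The genes were picked by hand. Of the 13 falls, *Wnt6*, *Wnt8a*, *Wls*, *Fzd1*, *Sfrp2*, *Rspo1* and *Lef1* are left out, and of the 6 rises *Wnt9b*. *Wnt8a* and *Rspo1* were highest in heterozygous cells, unlike the genes on the left. Black bars give the summed level of the 20 genes listed as feeder fibroblast markers. On the left the homozygous libraries lie lowest for each gene except *Wnt2*, whose heterozygous replicate 2 is level with them. The summed fibroblast markers were at 722 to 736 CPM there against 1605 to 1618 in wild-type. On the right *Wnt4* and *Wnt7a* are highest in heterozygous libraries and *Fzd6* and *Sfrp1* in homozygous ones.

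A further 56 genes of the pathway, from the destruction complex to targets of β-catenin, were listed by role, and 54 were tested. In the heterozygous deletion 1 rose and 1 fell, in the homozygous deletion 3 rose and 9 fell, and 5 rose and 12 fell from heterozygous to homozygous cells (3.70%, 22.2% and 31.5%, against the 5.14%, 21.4% and 25.8% of all genes). *Tnks*, a tankyrase that marks Axin for degradation and lies on chromosome 8, was at 120 and 117 CPM in wild-type and 180 and 184 CPM in homozygous libraries (log2 fold change 0.62, SE 0.05, adjusted p = 7.26e-09). *Prickle1*, a planar polarity gene, fell in homozygous cells (log2 fold change -0.77, SE 0.08, adjusted p = 6.35e-07), as did *Myc*, a target gene and growth regulator (log2 fold change -0.35, SE 0.05, adjusted p = 2.41e-05). *T*, the primitive streak gene Brachyury, had 112 and 87, 112 and 141, and 51 and 57 counts and also fell (log2 fold change -0.71, SE 0.18, adjusted p = 0.00651). *Notum*, an enzyme that removes the acyl group of Wnt proteins, was lowest in heterozygous libraries, at 7.91 and 6.65 CPM against 11.4 and 12.2 CPM in wild-type (log2 fold change -0.70, SE 0.11, adjusted p = 3.06e-04). *Tle4*, a corepressor that binds TCF factors, rose in homozygous cells (log2 fold change 0.21, SE 0.04, adjusted p = 0.00124). Of genes that mark other fates, 2 of 3 tested neural progenitor genes rose in homozygous cells, where 10.9% of all genes did. They were *Sox1* (log2 fold change 1.39), which lies on chromosome 8 with its median of 0.39, and *Pax6* (0.92, on chromosome 2). The part of chromosome 8 in the rise of *Sox1* was not tested. *Mixl1*, *Eomes* and *Tbx6*, the 3 tested genes of a primitive streak and mesoderm list, passed the test in neither deletion (edgeR, with 0 and 1 at an unadjusted p below 0.05), but that list does not hold *T*, which fell. The 3 tested primitive endoderm genes, *Gata4*, *Gata6* and *Sox7*, passed in neither deletion relative to wild-type (2 and 0 at an unadjusted p below 0.05), while *Gata6* was lower in homozygous than in heterozygous cells (log2 fold change -1.03, edgeR adjusted p = 0.0302).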

How the data were processed

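RNA was measured by stranded mRNA sequencing in 6 libraries, 2 for each of 3 genotypes taken from the sample labels. Per gene, the authors deposited unnormalized read counts as whole numbers, for 55385 genes in every library. The submitters' processing notes name Trimmomatic 0.39, STAR 2.6.1d, SAMtools 1.9, featureCounts 1.6.4 and DESeq2 1.22.2 with builds mm10 and GRCm38; the annotation release and the strand setting of the counting are not given in the sources used here. Exons of 11 members overlap another gene, 1 of them on the same strand, so such reads may be shared.

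Counts were fitted in R 4.3.3 (edgeR 4.0.16, limma 3.58.1), for the 16951 genes that reached 10 counts in 2 or more libraries, with TMM factors and a single quasi-likelihood model of the 3 genotypes with 3 residual degrees of freedom. Calls had a Benjamini-Hochberg adjusted p below 0.05 over all genes tested, in two-sided tests. The fit also borrowed a median of 16.1 degrees of freedom from the spread of other genes. Intervals are 95% and rest on 19.1 degrees of freedom. Positions and exon lengths came from GENCODE on GRCm38, which held 55144 of the gene identifiers, and promoter windows from RefSeq on GRCm38.p6. The 2 replicates within each genotype differed beyond sampling noise (chi-square per degree of freedom 2.21 to 3.38), so each library was counted once. The fit was also run on simulated counts drawn independently for each library, and no outcome of that run is used here. Such counts cannot address the joining of clone and genotype or replicates that may be technical. Gene positions are 1-based.

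The members and the lists of other pathway genes and markers were chosen with earlier results of these data known. Named with their values were *Wnt6* and *Wnt10a*, the members past the threshold in at least 1 comparison, and of the other pathway genes the 6 with the smallest adjusted p; remaining members are named with a level or count. The alternatives were DESeq2 1.42.0, other scalings and filters, the 4 libraries compared alone, the replicate number as a block, libraries thinned to 23813912 counts, a fold-change threshold and each library left out in turn. Figures were drawn in Python 3.11.15 with matplotlib 3.10.9. Breakpoints of the deletion were not analysed here.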

Additional observations from a re-analysis of the deposited data

How the results depend on the processing

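Counts of members called varied with the test and the libraries. With DESeq2, 2 rose and 0 fell in the heterozygous deletion, 3 and 6 in the homozygous deletion, and 10 were lower between the deletions; the threshold on fold change left 0 and 0, 1 and 5, and 0 and 2. With only the 4 libraries compared 8 rose in heterozygous cells, and with thinned libraries 1 fell. Leaving out 1 library gave 2 to 7 rises and 0 to 3 falls in the heterozygous deletion, 3 to 6 and 6 to 13 in the homozygous deletion, and 1 to 3 and 10 to 18 between the deletions; a genotype left with 1 library is assumed to vary like the others. Of the 48 calls of single members, 19 passed under every setting that gave a value, the fold threshold aside, 7 were lost only when a library was left out, and 0 changed sign. DESeq2 lost 19 of them and gave no adjusted p for 13 values of low members. Other settings with all 6 libraries or both replicates also ended the calls of *Wnt9b*, *Lgr5*, *Lrp6* and *Sfrp2*, of *Wnt5a* and *Wnt7b* in heterozygous cells, and of *Fzd5* between the deletions. The causes were not tested.

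The replicate numbers did not pair the libraries: deviations of same-numbered libraries correlated at 0.03, -0.09 and 0.01. With the replicate block 5 members rose and 2 fell in the heterozygous deletion, 5 and 13 in the homozygous deletion, and 3 were higher and 17 lower between the deletions.

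The sign changed for 8 values, none past the threshold. In heterozygous cells *Fzd1* was at 0.00916 with total counts, *Fzd1* ranged from -0.0226 to 0.0194 without 1 library, *Sfrp2* from -0.0731 to 0.0452, *Tnks* from -0.0743 to 0.0423 and *Lgr5* from -0.0822 to 0.404. In homozygous cells *Fzd5* was at -0.0119 with total counts, and *Notum* at -0.0448 with total counts and -0.00342 with thinned libraries. Without 1 library *Wnt3* ranged there from -0.00547 to 0.353, *Axin2* from -0.239 to 0.0302 and *Notum* from -0.0448 to 0.0735. *Wnt6*, *Wnt9b* and other members under about 20 counts are limited by depth.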
